A study of Mus musculus with 12 samples.

Results

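The Serpina3 genes of the mouse form a cluster of serine protease inhibitors on chromosome 12, and 7 of them were chosen by symbol. They were chosen because Serpina3m and Serpina3n ranked 1 and 9 of 13670 genes by absolute weight on the axis separating induced from uninduced cells. The symbols were Serpina3c, Serpina3f, Serpina3g, Serpina3h, Serpina3i, Serpina3m and Serpina3n. Of these 7, 6 were listed among the 22063 genes of the expression table and 5 passed the filter on low counts. Serpina3h was listed neither by symbol nor by its Ensembl identifiers, and it is not analysed here. Serpina3i was listed but stayed under the filter.

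RNA was sequenced from mesenchymal cells grown out of the mandibular condyle, the joint head of the lower jaw, of newborn mice. All cells carried Plagl1 fl/fl, that is, both copies of Plagl1 had sites for Cre recombinase, and all were infected with an adenovirus at a multiplicity of 100. The AdV-EGFP group received the control virus HBAD-EGFP and the AdV-CRE-EGFP group received HBAD-CRE-EGFP, both collected on day 0. The groups OI-AdV-EGFP (control virus) and OI-AdV-CRE-EGFP (Cre virus) went on to 4 days of osteogenic induction with 5 mM β-glycerophosphate, 50 µg/ml ascorbic acid and 100 nM dexamethasone, a synthetic glucocorticoid. Each of the 4 groups held 3 libraries, with no library from cells kept 4 days without these supplements, so induction and time in culture cannot be told apart. Nothing in the labels says that replicates were independent cultures or animals, and p-values then cover no more than the scatter among these libraries, possibly a technical one.

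Totals per library ran from 15316989 to 18052040 counts. Plagl1 was not lower in the libraries labelled as given Cre, with 400.8 ± 21.96 against 589 ± 6.46 CPM (counts scaled to library size with TMM factors, SD, n = 3) on day 0 and 391 ± 11.2 against 385 ± 18.0 CPM on day 4. The groups are therefore named by their labels, and a difference below is one between labelled groups. The paper reports reduced PLAGL1 protein by Western blot in cells given the Cre virus, which these RNA counts do not measure. The summed level of 8 mesenchymal markers lay between 14671 and 22465 CPM in all 12 libraries, while that of 5 hepatocyte markers, a cell type known for Serpina3 expression, lay between 0 and 7.11 CPM.

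Serpins trap their target proteases by offering a reactive loop as bait. When the protease cuts the loop, the serpin changes shape and locks the enzyme in a dead-end complex. The mouse cluster arose by duplication of a gene that remained single in humans as SERPINA3, which encodes antichymotrypsin, a plasma protein of the acute phase. Mouse Serpina3n is known as an inhibitor of granzyme B and as a marker of reactive astrocytes, and Serpina3g, also called Spi2A, as a cytosolic inhibitor of cathepsins. In bulk RNA, a higher level can come from more cells that express a gene or from more RNA per cell, and these cannot be told apart.

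On GRCm39 with the GENCODE M39 annotation, the 7 members lie on chromosome 12 between 104110471 and 104380597, a span of 270.1 kb. Serpina3c (104110471 to 104141177) is the single member on the minus strand. Serpina3f (104180772 to 104187388), Serpina3g (104202386 to 104208203), Serpina3i (104229363 to 104238677), Serpina3m (104304745 to 104361078) and Serpina3n (104372810 to 104380597) follow on the plus strand. Serpina3h, between Serpina3g and Serpina3i, is annotated as a long noncoding RNA and a transcribed pseudogene under separate identifiers. The annotated start of Serpina3m lies inside Serpina3k (104303391 to 104314397), a gene of the cluster outside the 7 symbols.

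The coding bases of the members were much alike except in the loop. Over the canonical coding sequences of the 6 protein-coding members, identity between aligned bases ran from 81.9% to 92.0% across 15 pairs, the lowest between Serpina3g and Serpina3m and the highest between Serpina3f and Serpina3i. In the stretch between the conserved hinge and the conserved block that closes the loop, identical bases were 37.5% to 62.5% of the longer stretch. This was across the 10 pairs in which both members held the pattern that was searched, which the coding sequence of Serpina3f did not. A pair with loops of unequal length, as with Serpina3c, has a lower share by this measure than over aligned bases. The stretches below are shown because they are the part of each inhibitor that meets the protease and the part in which these similar RNAs differ. They are exonic coding bases of GRCm39, 5′ to 3′ on the coding strand, and capitals mark the variable stretch between hinge and closing block. They come from chr12:104379701-104379796 (Serpina3n, plus strand), chr12:104113566-104113652 (Serpina3c, minus strand), chr12:104207325-104207420 (Serpina3g, plus strand) and chr12:104234733-104234828 (Serpina3i, plus strand).
Serpina3n: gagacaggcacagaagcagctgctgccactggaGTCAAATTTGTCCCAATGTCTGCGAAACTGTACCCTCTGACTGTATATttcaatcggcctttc
Serpina3c: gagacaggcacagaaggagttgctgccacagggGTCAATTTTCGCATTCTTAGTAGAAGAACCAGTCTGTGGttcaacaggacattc
Serpina3g: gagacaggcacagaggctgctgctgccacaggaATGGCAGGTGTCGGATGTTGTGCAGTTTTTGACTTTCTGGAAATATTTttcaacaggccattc
Serpina3i: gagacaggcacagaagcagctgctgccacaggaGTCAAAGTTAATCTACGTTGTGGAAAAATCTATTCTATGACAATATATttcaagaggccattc

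The loop stretch of Serpina3c held 39 bases, or 13 codons, and that of the other 3 held 48 bases, or 16 codons. Among loops of 48 bases, Serpina3n and Serpina3i were the most alike, with 62.5% identity, and Serpina3g and Serpina3m the least alike, with 43.8%. Serpina3c and Serpina3g matched in 18 bases, 37.5% of the longer loop, a share not comparable with those of equal length. Identical runs shared by the full transcripts of a pair of members reached 135 bases, between Serpina3g and Serpina3i, and Serpina3m shared a run of 154 bases with Serpina3k. Serpina3c shared runs of 81 bases with Serpina3m and 69 bases with Serpina3n. Reads from such runs can be assigned to more than 1 gene, so the low levels of Serpina3c, Serpina3f, Serpina3g and Serpina3i are uncertain in that respect.

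Some estimated counts of the cluster were fractional. In 5 of the 12 libraries, all from day 4, the estimated counts of 12 entries of Serpina3 genes were not whole numbers, and in each of these libraries they added up to a whole number within 0.005. In OI-AdV-EGFP replicate 1, for example, Serpina3c was listed at 97.03 and Serpina3m at 2193.97, together 2291. In OI-AdV-EGFP replicate 3, Serpina3k at 10.01 and Serpina3m at 1883.99 added up to 1894. No entry lay more than 0.03 from a whole number, which does not give the number of reads that the genes shared.

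Serpina3n had the highest level of the cluster in all 12 libraries. Its 3 AdV-EGFP libraries stood at 5.42, 4.79 and 4.75 CPM, and its 3 AdV-CRE-EGFP libraries at 9.25, 8.11 and 8.80 CPM. On day 4 the OI-AdV-EGFP libraries stood at 959.1, 950.7 and 903.4 CPM and the OI-AdV-CRE-EGFP libraries at 769.9, 765.6 and 754.6 CPM. None of the 4 groups overlapped another, and both induced groups were far above both groups of day 0. Between day 0 and day 4 the level differed by 188-fold in the EGFP groups and by 87.4-fold in the Cre groups. These folds are a description without a test, because the symbols were selected on the induction axis.

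Serpina3m was all but silent on day 0. Its counts were 0, 0 and 0 in the AdV-EGFP libraries and 0, 1 and 0 in the AdV-CRE-EGFP libraries, where 3 counts per library, the limit that a count of 0 allows, correspond to 0.183 to 0.198 CPM over these 6 libraries. After induction the OI-AdV-EGFP libraries stood at 128.9, 123.1 and 102.5 CPM and the OI-AdV-CRE-EGFP libraries at 79.9, 77.4 and 77.9 CPM. The level was thus at least 621-fold higher in OI-AdV-EGFP than in AdV-EGFP, with 3 counts per library as the floor. In the Cre groups the ratio was 3699, with an exact 95% counting interval of 663 to 146123 that rests on the single count of day 0. Intervals and floors of this kind cover counting error only.

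**Figure D1:**
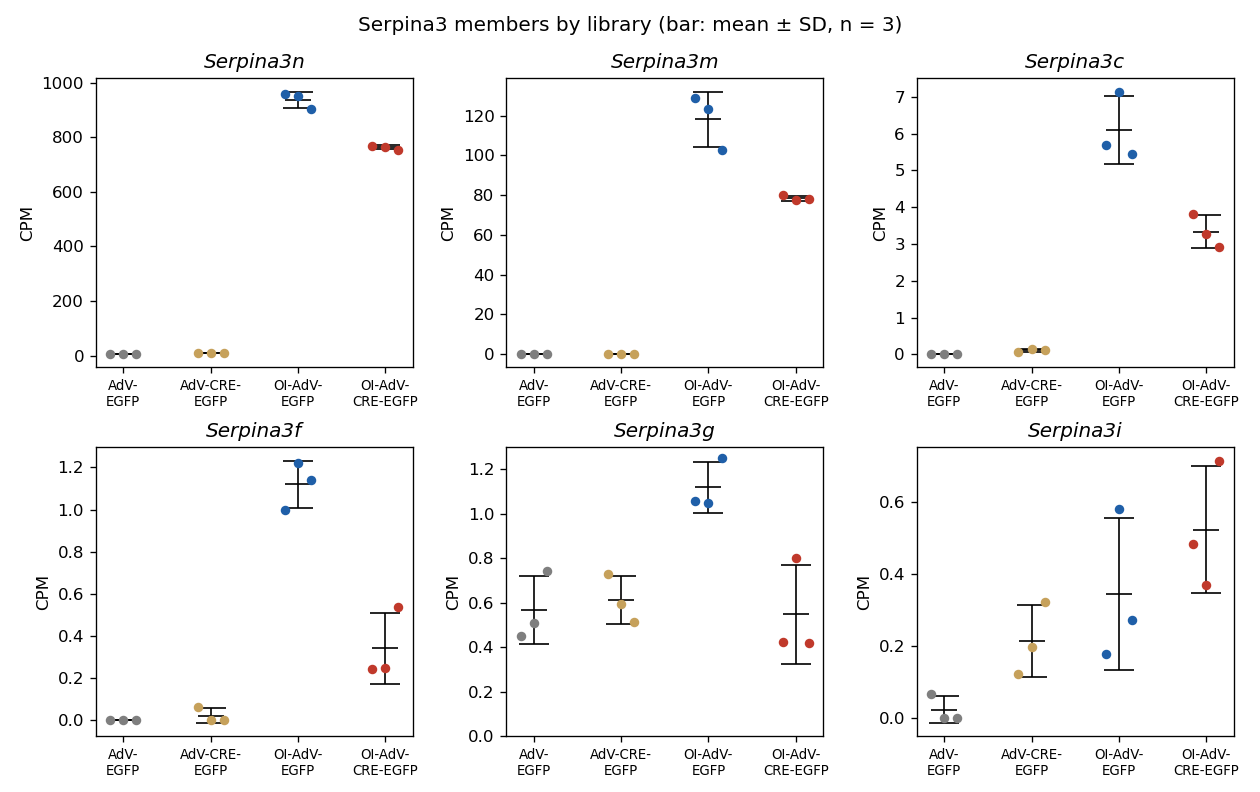
TMM-normalized CPM (vertical axis, linear, with its own range in each panel) of the 6 listed members in each of the 12 libraries, by group (horizontal axis). Points are libraries and bars are the mean ± SD (n = 3); Serpina3n, Serpina3m and Serpina3c have day 4 means of at least 763.4, 78.4 and 3.33 CPM, far above day 0, while Serpina3g and Serpina3i stay under 1.3 CPM throughout.

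Serpina3c followed the same course at a much lower level. It had 0 counts in each AdV-EGFP library and 1, 2 and 2 counts in the AdV-CRE-EGFP libraries, then 5.70, 7.15 and 5.44 CPM in OI-AdV-EGFP and 3.804, 3.27 and 2.92 CPM in OI-AdV-CRE-EGFP. The OI-AdV-EGFP mean was at least 32.1-fold above the floor of the AdV-EGFP libraries, and the ratio in the Cre groups was 31.4 (exact 95% counting interval 13.2 to 98.0).

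Serpina3f was detected almost only after induction. It had 17, 21 and 21 counts in the OI-AdV-EGFP libraries and 4, 4 and 9 in the OI-AdV-CRE-EGFP libraries, against 1 count in all 6 libraries of day 0. That is at least 5.89-fold between the EGFP groups and a ratio of 16.2 (exact 95% counting interval 2.54 to 676) between the Cre groups. It passed the filter through the 3 OI-AdV-EGFP libraries alone.

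Serpina3g was the member with the flattest profile. Its libraries stood at 0.452, 0.511 and 0.741 CPM in AdV-EGFP, 0.730, 0.593 and 0.514 CPM in AdV-CRE-EGFP, 1.06, 1.05 and 1.25 CPM in OI-AdV-EGFP, and 0.423, 0.802 and 0.417 CPM in OI-AdV-CRE-EGFP. The OI-AdV-EGFP libraries were above all others, and the remaining 3 groups overlapped. Its log2 difference between day 4 and day 0 was 0.97 in the EGFP groups and −0.17 in the Cre groups. Serpina3i, which was not tested, had 1, 0 and 0 counts in AdV-EGFP, 2, 3 and 5 in AdV-CRE-EGFP, 3, 10 and 5 in OI-AdV-EGFP and 8, 6 and 12 in OI-AdV-CRE-EGFP. AdV-EGFP lay below the other 3 groups and AdV-CRE-EGFP below OI-AdV-CRE-EGFP, while OI-AdV-EGFP overlapped both Cre groups.

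Per length of transcript, as FPKM, the order on day 4 in the OI-AdV-EGFP group was Serpina3n with 460.6 ± 12.9, Serpina3m with 72.2 ± 8.24, Serpina3c with 2.79 ± 0.413, Serpina3g with 0.681 ± 0.135, Serpina3f with 0.527 ± 0.0320 and Serpina3i with 0.158 ± 0.0965 (SD, n = 3). Serpina3g and Serpina3f were neighbours in this order that did not differ beyond their spread. In OI-AdV-CRE-EGFP the first 3 places were the same, with 367.9 ± 1.90, 47.0 ± 0.627 and 1.496 ± 0.191 FPKM. There Serpina3g at 0.318 ± 0.0980, Serpina3i at 0.236 ± 0.0808 and Serpina3f at 0.161 ± 0.0886 FPKM did not separate. On day 0 Serpina3n led with 2.44 ± 0.187 FPKM in AdV-EGFP and 4.14 ± 0.283 FPKM in AdV-CRE-EGFP, Serpina3g followed with 0.319 ± 0.120 and 0.363 ± 0.0908 FPKM, and no other member had a mean above 0.0950 FPKM. The transcript length implied by count and FPKM was 1654 to 1658 bases for Serpina3m and 2064 bases for Serpina3n, but it varied from 1269 to 1945 bases between libraries for Serpina3g, so the FPKM of that gene is less certain.

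Other genes of the cluster were measured in the same table. Serpina3a and Serpina3b, at one end of it, had 0 counts in all 12 libraries. Serpina3j had 1 count in AdV-EGFP and 2 in AdV-CRE-EGFP, and 0 after induction. Serpina3k, known as contrapsin and abundant in mouse liver, had 0 counts on day 0 and 9, 6 and 10 counts in OI-AdV-EGFP and 9, 12 and 2 in OI-AdV-CRE-EGFP. Gsc, the homeobox gene beyond Serpina3n on the other side, stood at 5.11 ± 1.08, 4.01 ± 0.746, 10.3 ± 0.610 and 6.92 ± 1.09 CPM in the order AdV-EGFP, AdV-CRE-EGFP, OI-AdV-EGFP, then OI-AdV-CRE-EGFP. High levels on day 4 were found at the Serpina3m and Serpina3n end, and levels of 0 at the Serpina3a and Serpina3b end. Level did not follow place throughout. Serpina3c, next to Serpina3b, had a mean of 6.10 CPM in OI-AdV-EGFP, while Serpina3j and Serpina3k, near Serpina3m, had 0 and 0.47 CPM there.

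**Figure D2:**
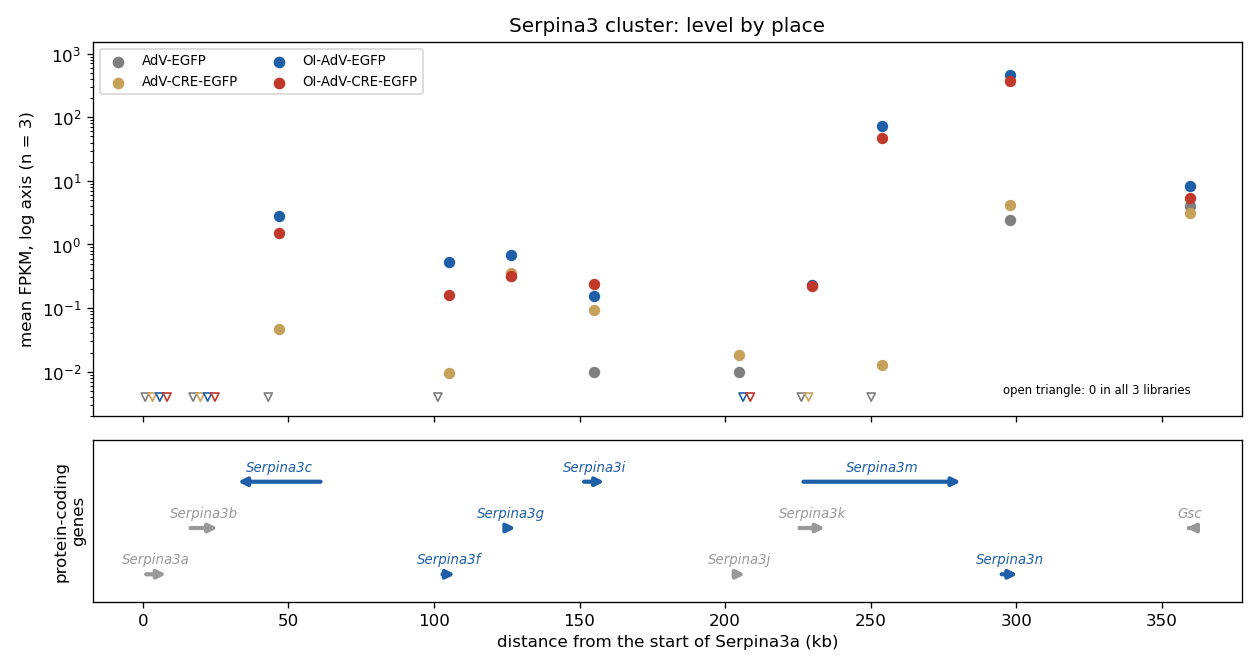
Mean FPKM (upper panel, logarithmic axis, n = 3, coloured by group) of each protein-coding Serpina3 gene and of Gsc, at its distance in kb from the start of Serpina3a. Arrows in the lower panel show extent and strand, the 6 protein-coding members are blue, and open triangles mark genes at 0 in all 3 libraries of a group; Serpina3n and Serpina3m reach 460.6 and 72.2 FPKM in OI-AdV-EGFP, whereas Serpina3a and Serpina3b are at 0 in every group.

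The weights on the induction axis were as uneven as the levels. The axis was the first principal component of log2 CPM over 13670 genes and took up 75.9% of the variance. The group means of its scores were −67.0 for AdV-EGFP, −59.6 for AdV-CRE-EGFP, 71.4 for OI-AdV-EGFP and 55.2 for OI-AdV-CRE-EGFP. By absolute weight Serpina3m ranked 1, Serpina3n 9, Serpina3c 67, Serpina3f 502 and Serpina3g 7716. The scores also separated the Cre and EGFP groups within a day, higher with Cre on day 0 and lower with Cre on day 4. The Cre differences of Serpina3m and Serpina3n given below are therefore not wholly independent of how the genes were chosen. The same holds for the change of these differences between the days.

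The comparison of Cre with EGFP after induction asked how the members differed between cells meant to lose Plagl1 and their controls under osteogenic conditions. All 5 tested members had a lower fitted level in OI-AdV-CRE-EGFP than in OI-AdV-EGFP, with an adjusted p under 0.05, where 20.6% of the 13670 tested genes did. Serpina3f and Serpina3g were called lower, that is, with a log2 fold change of at least 1 in size besides, where 2.61% of tested genes were called lower and 2.46% higher. Serpina3f entered the test only through the group in which it was high, so the count over the members is an account of them and not support for a shared direction. All values are from edgeR's quasi-likelihood test with Benjamini-Hochberg adjustment over all genes tested.

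The log2 fold change of Serpina3n was −0.30 (standard error 0.04, edgeR adjusted p = 3.6e-07), a level 1.23-fold lower, and its groups did not overlap. Serpina3m had −0.59 (standard error 0.07, edgeR adjusted p = 3e-07), with all 3 OI-AdV-CRE-EGFP libraries below the lowest OI-AdV-EGFP library. Serpina3c had −0.87 (standard error 0.20, edgeR adjusted p = 0.0015), again without overlap. For these 3 members the difference was past the adjusted p but under the fold needed for a call.

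Serpina3f had −1.69 (standard error 0.48, edgeR adjusted p = 0.0068), from 1.12 ± 0.112 to 0.342 ± 0.169 CPM (SD, n = 3). Because Serpina3f passed the filter through the OI-AdV-EGFP libraries alone, a lower level with Cre was favoured in advance. The fold and p-value of Serpina3f are therefore a description. The highest OI-AdV-CRE-EGFP library of Serpina3f, with 9 counts, was below the lowest OI-AdV-EGFP library, with 17. Serpina3g had −1.03 (standard error 0.39, edgeR adjusted p = 0.039), from 1.12 ± 0.115 to 0.547 ± 0.2203 CPM. This call did not hold without any 1 of 5 of the 6 induced libraries, with adjusted p = 0.067, 0.068 and 0.12 without OI-AdV-EGFP replicates 1, 2 and 3 and 0.14 without OI-AdV-CRE-EGFP replicate 1 or 3, nor in DESeq2 (adjusted p = 0.087). Over the alternatives tried its adjusted p ran from 0.01 to 0.14.

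**Figure D3:**
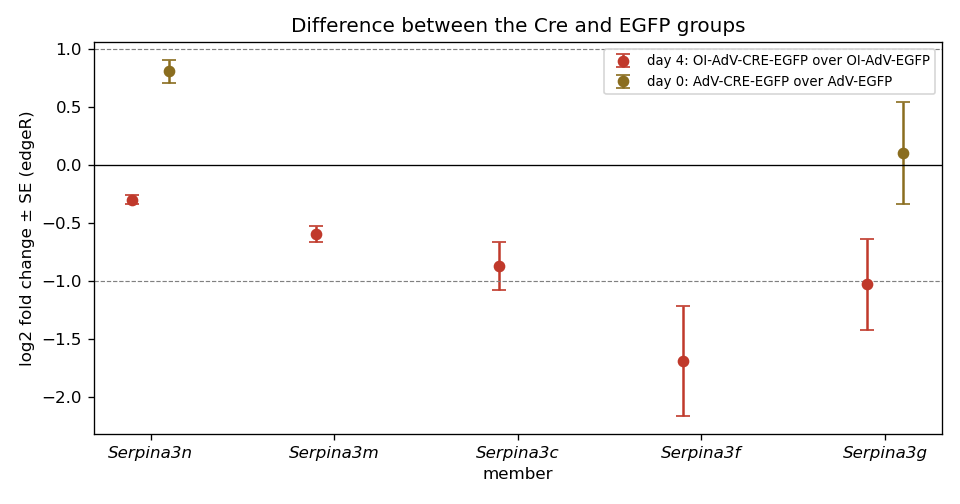
Log2 fold change ± standard error from edgeR (vertical axis) between the Cre and EGFP groups for the 5 tested members (horizontal axis), with dashed lines at the log2 fold of 1 in either direction needed for a call. On day 4 (red) the values run from −0.30 for Serpina3n to −1.69 for Serpina3f, which passed the filter through the OI-AdV-EGFP libraries alone. On day 0 (brown) only Serpina3n, at 0.81, and Serpina3g, at 0.11, had counts enough to be drawn.

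The level of Serpina3m on day 4 was also set against that of Serpina3n. Its FPKM was 16.7%, 16.1% and 14.1% of that of Serpina3n in the OI-AdV-EGFP libraries and 12.9%, 12.6% and 12.8% in the OI-AdV-CRE-EGFP libraries. The groups did not overlap, with means of 15.7% ± 1.37 and 12.8% ± 0.179 (SD, n = 3), and a two-sided exact permutation test gave p = 0.1, the smallest that 3 against 3 libraries allow, so no difference in the ratio was established. Serpina3n made up 85.1% to 87.0% of the summed FPKM of the members in OI-AdV-EGFP and 88.1% to 88.4% in OI-AdV-CRE-EGFP.

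**Figure D4:**
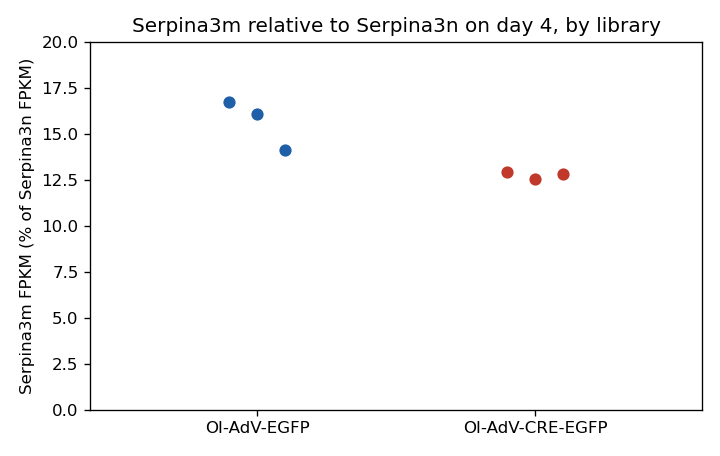
Serpina3m FPKM as a percentage of Serpina3n FPKM (vertical axis, from 0) in each library of the induced groups (horizontal axis), 1 point per library. The OI-AdV-EGFP libraries lie at 14.1% to 16.7% and the OI-AdV-CRE-EGFP libraries at 12.6% to 12.9%.

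Before induction the direction for Serpina3n was the opposite. Its level was 4.99 ± 0.376 CPM in AdV-EGFP and 8.72 ± 0.574 CPM in AdV-CRE-EGFP (SD, n = 3), a log2 fold change of 0.81 (standard error 0.10, edgeR adjusted p = 4.1e-07) and a level 1.75-fold higher, under the fold needed for a call. Serpina3n and Serpina3c were past the adjusted p and higher, where 15.8% of tested genes were. Serpina3c was also called higher, where 2.6% of tested genes were called higher, with an edgeR adjusted p of 0.042. That call compares 0 counts with 5 over 3 libraries each, all at or under the floor of 3 counts per library, so no fold is given. The call was lost in DESeq2 (adjusted p = 0.068), and without any 1 of the 3 AdV-EGFP libraries (adjusted p = 0.086 to 0.096) or AdV-CRE-EGFP replicate 2 or 3 (adjusted p = 0.089 for each). Serpina3g differed by 0.11 on the log2 scale (standard error 0.44, edgeR adjusted p = 0.89), and Serpina3m and Serpina3f, with 0 against 1 count, gave no usable comparison.

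The interaction tested whether the Cre difference itself differed between day 0 and day 4. For Serpina3n it was −1.10 on the log2 scale (standard error 0.10, edgeR adjusted p = 1.2e-08). The level of this gene was higher with Cre in 3 of 3 libraries on day 0 and lower in 3 of 3 on day 4. The scores of the induction axis, by which Serpina3n was chosen, changed in the same directions, so this p-value is not independent support. For Serpina3c the interaction was −4.77 (standard error 1.43, edgeR adjusted p = 0.018), a value that rests on the 0 and 5 counts of day 0. These 2 of the 5 tested members were below 0 at an adjusted p under 0.05, where 12.1% of tested genes were. The interaction of Serpina3g was −1.13 (standard error 0.59, edgeR adjusted p = 0.18), and those of Serpina3f and Serpina3m rest on a single count of day 0.

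Markers of other cell types moved between the same groups. The summed level of 6 adipocyte markers was 262.7 to 276.1 CPM in OI-AdV-EGFP and 722.1 to 760.1 CPM in OI-AdV-CRE-EGFP, with 43.4 to 46.4 and 118.7 to 123.8 CPM on day 0. That of 6 osteoblast markers was 143.7 to 369.2 CPM in OI-AdV-EGFP and 38.0 to 42.6 CPM in OI-AdV-CRE-EGFP. The 7 macrophage and myeloid markers summed to 453.0 to 481.1 and 486.4 to 522.7 CPM in these groups, and to 249.7 to 257.6 and 283.3 to 304.5 CPM on day 0. No defining marker of these lists was at 0 in all libraries, and their part in the differences of the Serpina3 genes was not tested.

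The 250 bases before the start of transcription were available from RefSeq (GRCm38.p6) for 5 of the 7 members, all but Serpina3h and Serpina3m. They were searched on both strands for the full glucocorticoid response element (AGAACA, any 3 bases, then TGTTCT), for its single hexamer TGTTCT, for the STAT element TTCNNNGAA, for the C/EBP element TTGCNNAA and for the TATA box TATAAA. A full element also counts as a match of the hexamer. The shares of all 32851 promoters with a match were 0.01%, 16.1%, 7.02%, 9.56% and 12.4% in the same order. No member held the full element. The hexamer was found for Serpina3n, Serpina3c, Serpina3i and the second of the starts listed for Serpina3f, and the STAT element for Serpina3f, Serpina3g and Serpina3i.

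The stretches below are shown because Serpina3n and Serpina3c have much the same letters upstream. Bases inside a GENCODE exon are left out, which removes 157 of the 250 bases of Serpina3n, since GENCODE places its start further upstream. For Serpina3f, Serpina3g and Serpina3i the bases around the STAT element are given. Capitals mark motif matches. The positions on GRCm38.p6 are chr12:104406458-104406550 (Serpina3n, plus strand), chr12:104153892-104154122 (Serpina3c, minus strand), chr12:104214393-104214461 (Serpina3f, plus strand), chr12:104236084-104236126 (Serpina3g, plus strand) and chr12:104262990-104263058 (Serpina3i, plus strand).
Serpina3n: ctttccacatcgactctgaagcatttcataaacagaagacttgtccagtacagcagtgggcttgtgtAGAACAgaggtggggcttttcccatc
Serpina3c: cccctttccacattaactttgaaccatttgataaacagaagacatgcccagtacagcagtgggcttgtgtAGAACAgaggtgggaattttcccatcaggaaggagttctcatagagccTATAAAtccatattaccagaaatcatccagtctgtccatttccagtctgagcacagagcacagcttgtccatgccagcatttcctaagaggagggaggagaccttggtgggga
Serpina3f: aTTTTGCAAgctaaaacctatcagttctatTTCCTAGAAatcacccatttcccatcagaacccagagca
Serpina3g: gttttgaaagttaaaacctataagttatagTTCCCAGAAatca
Serpina3i: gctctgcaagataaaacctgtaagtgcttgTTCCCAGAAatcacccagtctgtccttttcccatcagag

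The stretch of Serpina3n matched that of Serpina3c in 84 of 93 aligned bases (90.3%), the hexamer included. Their coding bases were 86.0% identical. No other pair was compared upstream, and a tie between these letters and the levels on day 4 was not tested. Serpina3f, Serpina3g and Serpina3i, neighbours on the chromosome with levels of 1.3 CPM or less in every library, shared the STAT element. A match is a description of the letters and not a sign that a factor binds there.

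The genes whose profile over the 12 libraries lay closest to a member were found from log2 CPM centred on each gene's mean, over 13663 genes, as a description. Closest to Serpina3n were Zbtb16 (root mean square difference 0.232), a zinc finger factor known as a glucocorticoid target, and Aldh1a1 (0.238), which makes retinoic acid, then Cbln2 (0.485), Lcn2 (0.508) and Lbp (0.515). Zbtb16 had group means of 0.127, 0.321, 52.7 and 38.95 CPM, with the 2 groups of day 0 first and EGFP before Cre on each day. Aldh1a1 had 3.35, 5.72, 471.5 and 396.7 CPM in that order. Lbp, in contrast, was higher with Cre on day 4 (log2 difference 0.18, edgeR adjusted p = 0.0019), opposite to Serpina3n.

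Closest to Serpina3c was another serpin, Serping1 (0.229), the inhibitor of complement C1 esterase, with 8.96, 15.1, 415.6 and 266.0 CPM in the same order, followed by Dpep1, Egfl6, Steap4 and Krt23 (0.306 to 0.336). Near Serpina3m were Scara5, Lbp, Sult1a1 and Fmo2, at 0.836 to 1.08. The distance between members was 1.13 between Serpina3c and Serpina3n, 1.31 between Serpina3m and Serpina3n and 2.38 between Serpina3c and Serpina3m, distances that depend on the floor of the log scale where a gene has 0 counts.

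The genes around these inhibitors in known pathways were described through lists chosen with earlier results of these data known. Of 20 acute-phase and inflammatory genes, 14 were tested, and 13 were called higher and 1 lower after induction in the EGFP groups, where 15.1% of tested genes were called higher and 10.8% lower. Their median log2 fold change was 6.15, beside 0.05 over all tested genes. Metallothionein Mt2 rose from 66.8 to 575.5 CPM and Il1rn, the interleukin 1 receptor antagonist, from 35.4 to 410.0 CPM. Between the induced groups 5 of the 14 were called with Cre, each of them lower, where 2.61% of tested genes were called lower. Their median was −0.69 beside −0.01 over all tested genes. Complement C3 stood at 70.4 CPM with EGFP and 22.98 CPM with Cre (log2 fold change −1.62 with a standard error of 0.08, edgeR adjusted p = 8.1e-14) and haptoglobin, Hp, at 44.3 and 10.6 CPM (−2.07 with a standard error of 0.12, edgeR adjusted p = 4.8e-13). The metallothionein genes Mt1 and Mt2, with log2 fold changes of 0.05 and 0.02, were not called.

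The glucocorticoid receptor and its targets, 16 genes, were all tested. After induction in the EGFP groups 11 were called, each of them higher, where 15.1% of tested genes were called higher. The median was 2.23. Glul, glutamine synthetase, rose from 60.0 to 502.7 CPM and Tsc22d3, which encodes the glucocorticoid-induced leucine zipper, from 18.9 to 571.6 CPM. Between the induced groups 1 gene, Angptl4, an inhibitor of lipoprotein lipase, was called higher with Cre (log2 fold change 1.73, standard error 0.08, edgeR adjusted p = 1.3e-14), and the median was −0.13. Other genes were past the adjusted p but under the fold. Zbtb16 (−0.44, edgeR adjusted p = 7.4e-06) and Tsc22d3 (−0.20, edgeR adjusted p = 0.0013) were lower with Cre. Dusp1 was higher (0.41, edgeR adjusted p = 3.7e-05), and Glul was not past it (edgeR adjusted p = 0.95). The receptor gene Nr3c1 stood at 105.6 ± 5.40 and 105.0 ± 4.06 CPM in the induced groups, a log2 fold change of −0.01 (standard error 0.05, edgeR adjusted p = 0.91).

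Of 16 genes of interleukin 6 family receptors and STAT3 feedback, 15 were tested. After induction in the EGFP groups 4 were called higher, among them Cebpd, a transcription factor of the acute phase (36.7 to 89.2 CPM). Another 4 were called lower, among them Junb (59.9 to 23.2 CPM). The shares over all tested genes were 15.1% higher and 10.8% lower. With Cre on day 4, 0 of the 15 were called in edgeR and 0 in DESeq2, 11 had an unadjusted p under 0.05 in edgeR, beside 48.2% of all 13670 genes tested, and the median was −0.25. A single gene was called without OI-AdV-EGFP replicate 1, without OI-AdV-CRE-EGFP replicate 2 and with limma on FPKM. Of 26 interferon and NF-kB response genes, all tested, 17 were called higher and 1 lower after induction, beside the same shares. Their median was 2.20. With Cre on day 4, Oasl2, Irf7 and Ifi27l2a were among 4 called lower and the chemokine gene Ccl2 was called higher, with a median of −0.70. Of all tested genes 2.61% were called lower and 2.46% higher there.

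Of 21 proteases that serpins of this clade are known to inhibit or bind, 8 were tested. Ctsk, the collagen-degrading cathepsin K of osteoclasts, and Gzmb, granzyme B, were called higher with Cre on day 4, where 2.46% of tested genes were. Their means went from 391.99 to 848.4 CPM and from 0.07 to 1.07 CPM. The Gzmb mean in OI-AdV-EGFP lay under the level of 3 counts per library. Both genes were also called higher with Cre on day 0, where 2.6% of tested genes were, from 156.7 to 562.0 CPM and from 0.21 to 6.16 CPM. Among 13 tested serpins outside the cluster, of 31 listed, Serpinb9b was called higher with Cre on day 4 (107.6 to 371.5 CPM). After induction in the EGFP groups 7 were called higher and 2 lower, where 15.1% and 10.8% of tested genes were. The count with Cre on day 4 was 1 to 2 with any 1 library left out and 3 with no filter on low counts. Serping1 and Serpinb9 were among the 7 called higher after induction in the EGFP groups, and neither was called with Cre on day 4. Both were past the adjusted p there but under the fold. Serping1 was lower (log2 fold change −0.64, edgeR adjusted p = 2.4e-11) and Serpinb9 higher (0.36, edgeR adjusted p = 2.6e-05). The median over the 13 serpins was 0.02. No list was tested as a set.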

How the data were processed

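The members, lists and tests were chosen with earlier results of these data known. The authors made libraries with the NEBNext Ultra II kit, and used cutadapt, HISAT2 (GRCm39) and HTSeq, as their methods and processing notes state. The estimated counts of the deposited table were left unscaled by the authors, and its FPKM values were divided by the authors by transcript length and mapped fragments. Between 1646 and 1844 counts in each library are fractional, unlike HTSeq output, and neither the reason, the annotation nor the strand setting is given in the sources used here, so overlapping and antisense genes are uncertain.

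Here, all 12 libraries were mapped to groups by their labels. Estimated counts were rounded and fitted in edgeR 4.0.16 (R 4.3.3; quasi-likelihood F test, TMM, filterByExpr, 4 group means without other terms), which left 13670 genes. Genes were called past a log2 fold of 1 in either direction at a Benjamini-Hochberg adjusted p under 0.05. Interaction calls used the adjusted p alone. The fit was tested on simulated data. Libraries of a group differed by more than sampling noise. Gene models came from GENCODE M39 and alignments from Biopython 1.88. All 7 members were named, other genes only from the lists (up to 4 called ones each, by level), by likeness (the 5 nearest for members with a mean of at least 1 CPM), or as neighbours and label checks. Alternatives were other scalings, DESeq2 1.42.0, limma 3.58.1 on log2(FPKM + 1) and log2(FPKM + 0.1), no filter, the compared groups alone, a replicate block and each library left out. Some results that the naming rule would give are not reported here.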

Additional observations from a re-analysis of the deposited data

Results flagged for a closer look

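For 2 members the difference between the Cre and EGFP groups itself differed between day 0 and day 4, by the interaction term of the edgeR fit. For Serpina3n this term was −1.10 on the log2 scale (standard error 0.10, edgeR adjusted p = 1.2e-08), with counts of 75 to 152 per library on day 0 and 12416 to 16613 on day 4, and its adjusted p stayed at 2.7e-06 or below under the 20 alternatives run. For Serpina3c it was −4.77 (standard error 1.43, edgeR adjusted p = 0.018), with adjusted p of 0.0019 to 0.048 under the same number of alternatives. On day 0 Serpina3c had 0 counts in the AdV-EGFP libraries and 5 in the AdV-CRE-EGFP libraries, so the size of that term depends on how a count of 0 is treated. The scores of the induction axis, by which Serpina3n was chosen, changed in the same directions as its level. The p-value of the Serpina3n term is therefore not independent support.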

How the results depend on the processing

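The 2 members called lower with Cre on day 4 became 1 without the filter, with the replicate block, in DESeq2 and on log2(FPKM + 0.1), and 0 on log2(FPKM + 1). Without 1 library the count was 1 to 2. The 1 member called on day 0 became 0 with the compared groups alone, in DESeq2 and on both FPKM scales, and 0 to 1 without 1 library. The 2 members of the interaction became 5 on log2(FPKM + 1) and 4 on log2(FPKM + 0.1), and remained 2 in number without any 1 library. On log2(FPKM + 1), a scale that compresses low levels, the calls over all genes went from 693 to 241 for Cre on day 4, from 432 to 122 for Cre on day 0, from 3541 to 2018 for induction with EGFP and from 2825 to 1445 for induction with Cre. Without 1 library they were 666 to 727, 399 to 449, 3544 to 3652 and 2806 to 2899, and 2708 to 3059 for the interaction (3115 with all libraries). Serpina3g on day 0 went from 0.11 to −0.052 without AdV-EGFP replicate 1 and to −0.060 without AdV-CRE-EGFP replicate 1, in a range of −0.060 to 0.33 without 1 library. The causes of these shifts were not tested beyond what each setting changes.

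Same-numbered libraries did not deviate together, with 0 of 18 correlations over 0.1 (−0.05 to 0.04). With 3 libraries per group this cannot show whether they shared a culture or an animal. With the replicate block 680 genes were called for Cre on day 4, 427 for Cre on day 0 and 3031 for the interaction, and Serpina3g had an adjusted p of 0.052 on day 4.

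At this depth 3 counts correspond to 0.163 to 0.198 CPM, and the day 0 counts of Serpina3c, Serpina3f and Serpina3m were at or under that limit in every library.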
